A study of Salmo trutta with 45 samples.

Results

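Glucuronosyltransferases and sulfotransferases were followed in brown trout (Salmo trutta) liver after fish had been exposed to glyphosate or to Roundup, a commercial herbicide formulation of glyphosate. Members were all transcripts whose zebrafish or mammalian annotation names a UDP glucuronosyltransferase or a sulfotransferase. Of 67093 transcripts listed in the 5 tables, 143 were members, and 136 of these were listed in all 5. They came from 41 of 20387 Trinity components (groups of transcripts that the assembler built from overlapping reads) and carried the names of 39 zebrafish genes. The set held 27 transcripts of 11 UDP glucuronosyltransferase (UGT) genes, 60 of 10 cytosolic sulfotransferase (SULT) genes, 42 of 16 sulfotransferase genes acting on glycans and 14 of 2 tyrosylprotein sulfotransferase (TPST) genes. Only the mammalian annotation held the search term for 3 UGT members, all named si:ch73-334d15.1 in zebrafish.

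Livers came from juvenile females about 6 months old, kept in flow-through tanks for 14 days, with 1 library per fish. Roundup was given at 0.01 mg/L (LR), 0.5 mg/L (MR) or 10 mg/L (HR), expressed as glyphosate acid, and glyphosate alone at 0.01 mg/L (LG) or 10 mg/L (HG), with 6 fish in each of these 5 groups. Control fish were kept in water alone, and both control groups of the study were combined into 12 fish. Each treatment had 2 tanks, and the labels do not tell which fish shared one, so p-values measure the spread between fish only. All 5 comparisons use the same 12 controls, and their results are therefore not independent of each other. The middle glyphosate group (3 fish) was not analysed here.

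UGTs sit in the endoplasmic reticulum and transfer glucuronic acid from UDP-glucuronate to bilirubin, steroids, bile acids, phenols and many foreign compounds, which makes them soluble enough to leave in bile or urine. Cytosolic SULTs do the same with a sulfate group taken from 3'-phosphoadenosine 5'-phosphosulfate (PAPS). The glycan and tyrosylprotein enzymes also use PAPS but work in the Golgi, where they sulfate heparan, chondroitin and other sugar chains or tyrosines of secreted and membrane proteins. Liver is a main site of the first 2 reactions in vertebrates.

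Between 10223627 and 33291845 reads per fish (median 17027085) were counted on listed transcripts. Transcripts of 10 hepatocyte marker genes made up 127507.5 to 172004.7 CPM (counts scaled to a common library size) in controls, exocrine pancreas markers (9 genes) 0.333 to 164.7, red cell markers (2 genes) 243.5 to 649.4, bile duct markers (3 genes) 383.3 to 628.9 and leukocyte markers (3 genes) 14.7 to 37.5. LG fish 1 and MR fish 1 departed most from the rest of their groups over all transcripts (mean absolute difference of 0.826 and 0.812 in log2 CPM, against 0.368 to 0.594 in the other 40 fish). Over the members LG fish 1 again departed most, by 0.914. Several named values in LG and MR are also given without them. In whole liver, fewer cells of a type and less RNA per cell cannot be told apart. CPM were computed with TMM library sizes. They were not divided by transcript length, so levels are compared between fish but not between genes, except as shares of reads.

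No member was called different in any comparison. Calls were made at a false discovery rate (FDR, the Benjamini-Hochberg adjusted p of edgeR's quasi-likelihood test over all transcripts tested) below 0.1. For Roundup the test called 0 of 137 members at the low, 0 of 139 at the middle and 0 of 139 at the high dose, beside 0.0209%, 0.00159% and 0.00639% of all transcripts tested. For glyphosate it called 0 of 140 members at the low and 0 of 137 at the high dose, beside 0.0% and 0.00157% of all transcripts. The smallest member FDR was 0.241, in MR, and it was 0.459 (LR), 0.416 (HR), 0.523 (LG) and 0.729 (HG) elsewhere. With edgeR's exact test 1 member passed in MR, a ugt5c1 transcript, and 0 in the other comparisons with controls. Over all transcripts that test called 0.163% (LR), 0.992% (MR), 0.671% (HR), 0.446% (LG) and 0.0551% (HG). DESeq2 also called this transcript in MR only, beside 0.249%, 0.743%, 0.275%, 0.0504% and 0.0346% of all transcripts in the same order.

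Counting unadjusted p-values below 0.05, 13 of 137 members (9.49%) passed in LR, where 7.75% of all transcripts did, and 18 of 139 (12.9%) in MR, where 8.93% did. The other groups gave 7 of 139 in HR (5.04%, against 7.34%), 7 of 140 in LG (5.0%, against 6.72%) and 3 of 137 in HG (2.19%, against 6.48%). In LR 3 of these members were higher than in controls (2.19%, against 3.92% of all transcripts) and 10 lower (7.3%, against 3.83%). In MR 10 were higher (7.19%, against 5.18%) and 8 lower (5.76%, against 3.75%). The higher ones in MR include a transcript of hs6st2 listed for MR alone, which adds no support to that count. HR had 2 higher (1.44%, against 4.08%) and 5 lower (3.6%, against 3.26%), LG 3 higher (2.14%, against 4.49%) and 4 lower (2.86%, against 2.24%), and HG 0 higher (against 3.22%) and 3 lower (2.19%, against 3.26%).

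Single fish moved several of these counts by more than 1.5 times. Without MR fish 4 the MR count was 11. The HR count was 3 without HR fish 3 and 11 without HR fish 4, and the LG count was 11 without LG fish 6. HG gave 8 without HG fish 4, and 5 without HG fish 1, HG fish 3 or control fish 2. No fish moved the LR count that far (9 to 15), and leaving out LG fish 1 or MR fish 1 gave 6 and 15. The median log2 fold change over all members tested was -0.04, -0.03 and -0.07 for rising Roundup dose and -0.05 and -0.09 for rising glyphosate dose, beside medians of 0.00, 0.01, -0.01, 0.01 and 0.00 over all transcripts. The LR median was 0.01 without LR fish 3, and the MR median was 0.01 without MR fish 1 and 0.00 without MR fish 4 or control fish 1. The LG median reached from -0.104 without LG fish 6 to -0.028 without control fish 8.

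**Figure D1:**
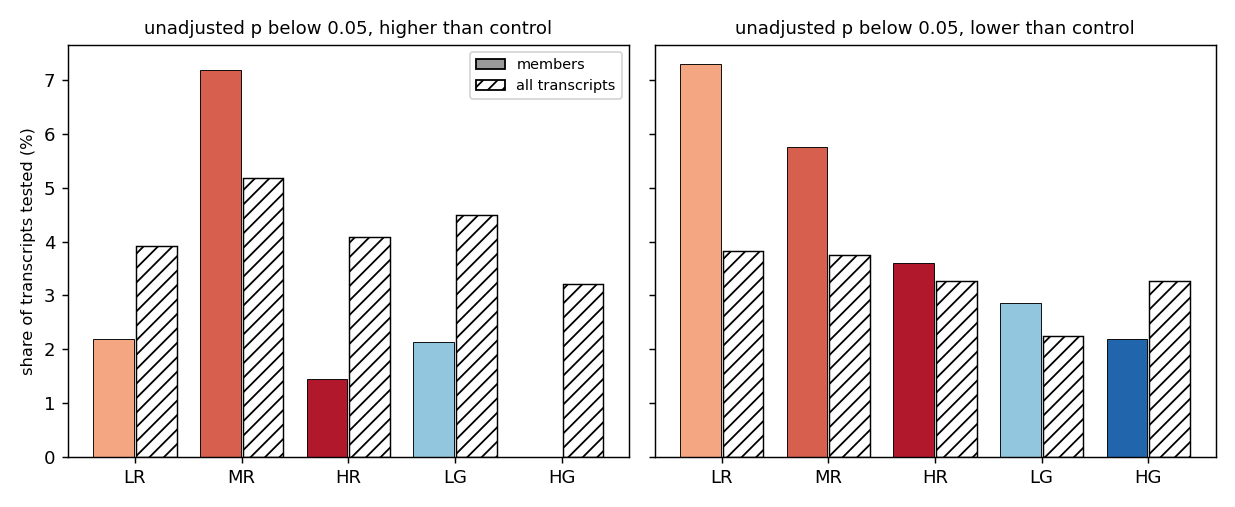
Share of transcripts tested (%) with an unadjusted quasi-likelihood p below 0.05, higher (left) or lower (right) than the 12 controls, in each exposed group; filled bars are members and hatched bars all transcripts. Among lower transcripts in LR the bars stand at 7.3% and 3.83%, and no HG member is in the left panel.

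Counts summed over all transcripts of a zebrafish gene gave a test for each whole gene. A sum holds every transcript listed for the groups compared, while gene levels in CPM are of transcripts listed in all 5 tables. This summation was chosen after the data had been seen, because 17 of the 41 member components also hold 66 transcripts of other genes or without annotation. At FDR below 0.1, 0 of 39 genes were called (0 of 38 in HG). Unadjusted p was below 0.05 for 2 genes in LR (5.13%, against 8.85% of all genes), 4 in MR (10.3%, against 10.1%), 3 in HR (7.69%, against 7.98%), 3 in LG (7.69%, against 7.52%) and 1 in HG (2.63%, against 6.92%). The 95% interval of the fold change lay wholly within 2-fold either way for 33 (LR), 32 (MR), 36 (HR), 35 (LG) and 34 (HG) genes.

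Among UGTs, the 26 transcripts listed in all tables summed to 797.1, 1226.0 and 1512.5 CPM in controls (lowest, median and highest fish). LR fish had 1028.7, 1227.5 and 1404.0 CPM, MR fish 968.6, 1259.0 and 1479.1, HR fish 834.3, 1141.0 and 1497.4, LG fish 642.7, 1173.3 and 1386.5, and HG fish 1069.3, 1266.5 and 1391.6. Apart from LG fish 1, at 642.7 CPM, every exposed fish lay within the range of the controls. The UGT transcripts tested had median log2 fold changes of -0.02 (LR), -0.02 (MR), -0.15 (HR), -0.14 (LG) and 0.00 (HG), with 24 of 27 below 0 in HR and 21 of 27 in LG, where the median was -0.005 without LG fish 1 and -0.219 without LG fish 6. For HR this median came to -0.039 when fish 1 was left out, to -0.05 when fish 3 was and to -0.078 when fish 4 was. In controls ugt1ab held 44.3% of these reads, ugt5a1 12.7%, ugt2a4 12.6%, ugt5d1 7.54% and ugt1b4 5.98%, and the other 6 genes 0.658% to 5.35% each. The UGT1 and UGT2 families also occur in mammals, while UGT5 is known from zebrafish and other fish.

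**Figure D2:**
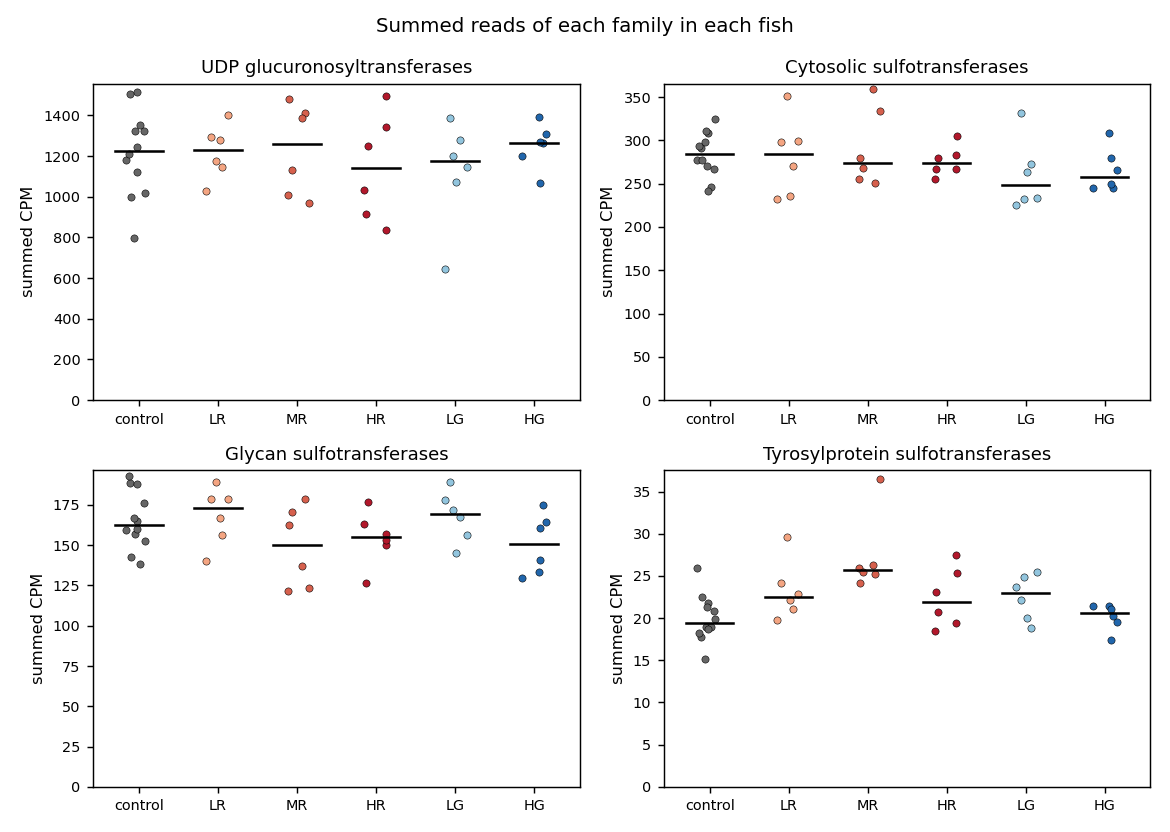
Summed CPM (vertical axes, from 0) of the member transcripts of each family listed in all 5 tables, 1 point per fish and bars at the medians, for 12 controls and 6 fish per exposed group. UGT sums of all groups overlap the controls, with LG fish 1 lowest at 642.7, and MR fish 4 has the highest TPST sum at 36.4.

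The gene with the most reads, ugt1ab, is annotated to the family whose mammalian members conjugate bilirubin and phenols. Its 6 transcripts summed to 364.9, 555.2 and 701.2 CPM in controls. LR fish had 507.4, 536.3 and 648.9 CPM, MR fish 468.1, 570.7 and 681.2, HR fish 378.6, 518.5 and 711.7, LG fish 307.1, 512.8 and 605.8, and HG fish 486.2, 541.2 and 606.5. Fish of every group overlapped the controls almost throughout. Its log2 fold changes were 0.07 ± 0.14 (SE), 0.08 ± 0.15 and -0.05 ± 0.15 for LR, MR and HR and -0.11 ± 0.16 and -0.01 ± 0.14 for LG and HG, and the 95% intervals reached from -0.45 to 0.39. Next by reads came ugt5a1, ugt2a4, ugt5d1 and ugt1b4. In every exposed group ugt5d1 had a log2 fold change below 0, from -0.30 in LR to -0.05 in MR. It was -0.26 in HR, -0.30 in LG and -0.19 in HG. Unadjusted p for this gene ranged from 0.14 to 0.814 (quasi-likelihood test). The log2 fold changes of ugt5a1 ranged from -0.07 in HR to 0.06 in LR, those of ugt2a4 from -0.15 in LG to 0.16 in HG and those of ugt1b4, of the UGT1 family, from -0.15 in HR to 0.16 in LG.

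Both transcripts of ugt5b2 had lower values in LR. The more abundant one (comp120205_c1_seq2) had 18.8, 29.6 and 43.6 CPM in controls and 12.1, 22.9 and 27.5 CPM in LR. All 6 LR fish lay under the control median and 2 of them under every control. The log2 fold change was -0.53 ± 0.19 (unadjusted p = 0.0102 by the quasi-likelihood test, FDR = 0.509, exact permutation p = 0.00754, 2-sided). For the whole gene it was -0.51 ± 0.18 (unadjusted p = 0.00917, FDR = 0.412, quasi-likelihood test). Levels of the gene ranged more widely in LG, from 6.88 CPM in fish 1 to 51.6, around a median of 41.2 that compares with 44.8 in controls. In LG the gene had a log2 fold change of -0.37 (unadjusted p = 0.172), and -0.16 without fish 1 (unadjusted p = 0.352, quasi-likelihood test).

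The member with the smallest p of all was ugt5c1 comp117289_c1_seq1 in MR. It had 0.73, 1.32 and 1.94 CPM in controls and 0.226, 0.586 and 1.11 CPM in MR, that is 13 to 39 reads per control and 5 to 20 per MR fish. Of the 6 MR fish 5 lay under every control. The log2 fold change was -1.13 ± 0.30 (95% interval -1.74 to -0.51, unadjusted p = 0.000988, FDR = 0.241 by the quasi-likelihood test, exact permutation p = 0.000593). With the exact test the FDR was 0.0547 and with DESeq2 0.0638. LG fish had 0.351, 0.641 and 1.31 CPM, 4 of 6 under every control (log2 fold change -0.80 ± 0.28, unadjusted p = 0.00859, FDR = 0.604, quasi-likelihood test). Without LG fish 1 the LG value was -0.67, and without MR fish 1 or MR fish 4 the MR value was -1.17 or -1.42. Most reads of this gene, however, fell on comp117289_c1_seq2, with 17.7, 28.4 and 41.4 CPM in controls and 19.6, 25.3 and 41.0 in MR, so that the groups overlapped widely. Summed over the gene, the log2 fold change was -0.15 in MR and -0.38 ± 0.18 in LG (unadjusted p = 0.446 and 0.0461, quasi-likelihood test). Without LG fish 1 the latter was -0.39 (unadjusted p = 0.0527).

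**Figure D3:**
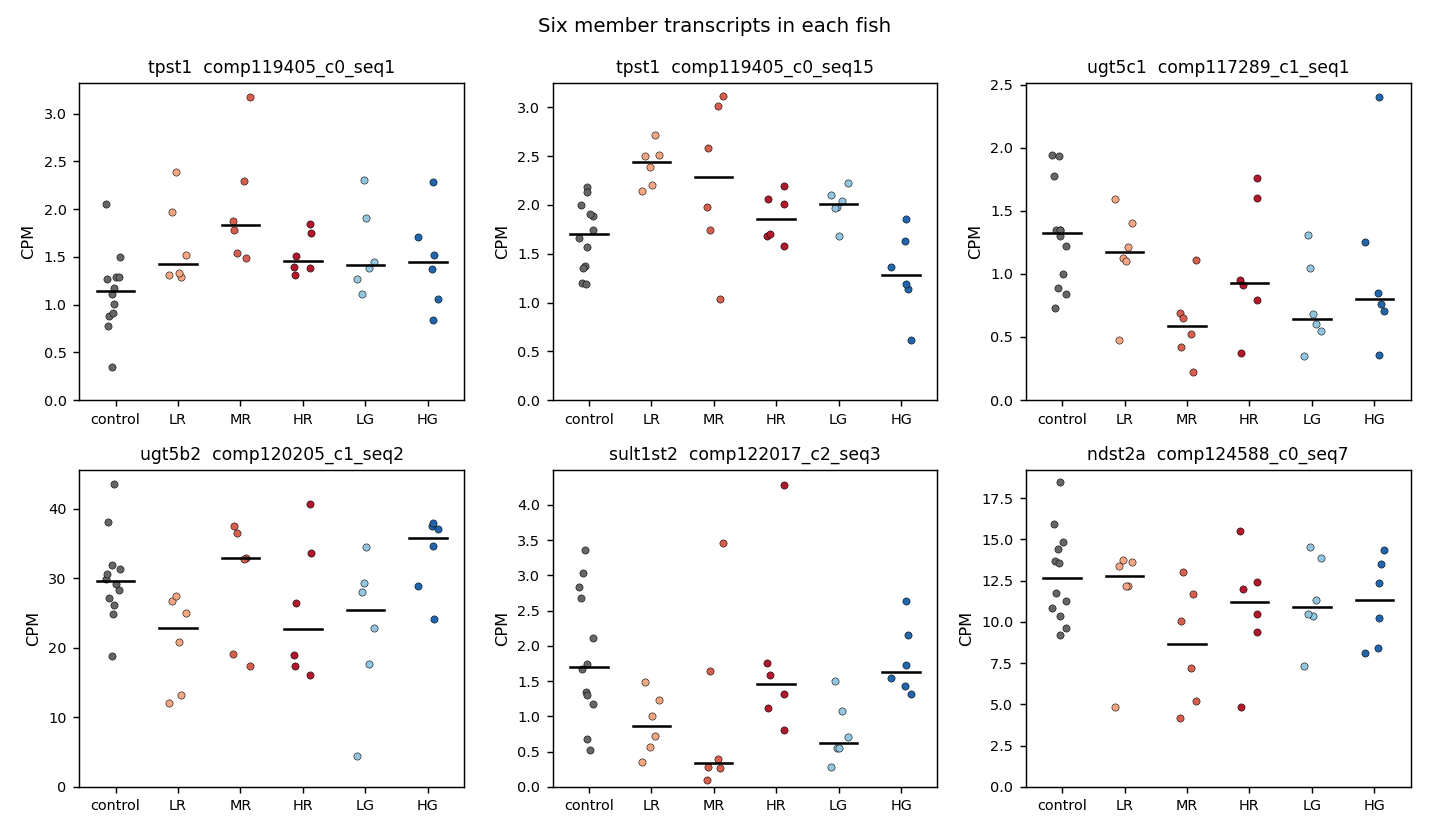
CPM (vertical axes, from 0) of 6 member transcripts, 1 point per fish and bars at the medians. In tpst1 comp119405_c0_seq15 5 of 6 LR fish lie above every control, and in ugt5c1 comp117289_c1_seq1 5 of 6 MR fish lie under every control. In sult1st2 comp122017_c2_seq3 MR fish reach from 0.0989 to 3.45 CPM, beyond the controls (0.525 to 3.36 CPM) at both ends.

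Among untreated fish, 2 UGT genes varied the most of all members. The biological coefficient of variation (the spread between fish beyond counting error, relative to the mean) among the 12 controls had a median of 0.261 over 123 members above 1 CPM and of 0.258 over 48680 such transcripts in all. Its highest values were 0.613 and 0.604 for si:ch73-334d15.1 (comp98984_c2_seq1 and comp98984_c0_seq1) and 0.583 for ugt5g1. In comp98984_c0_seq1 controls reached from 3.11 to 58.4 CPM, an 18.8-fold range, around a median of 39.2. Control fish 2 and 4 were the lowest in all 3 components of si:ch73-334d15.1. MR fish 4 and HR fish 1 lay under every control in comp98984_c0_seq1, with minima of 1.84 and 1.2 CPM in their groups. For this gene the 95% intervals of the log2 fold change spanned -1.42 to 0.80 in HR and -1.35 to 0.80 in MR. They spanned -1.02 to 0.80 in LR and -1.07 to 0.82 in LG. Each of these was wide enough to hold a 2-fold lower level, while the HG interval reached from -0.89 to 0.80. In ugt5g1 controls ranged over 2.9, 4.67 and 23.0 CPM and HG fish over 3.0, 15.7 and 27.5 CPM, a log2 fold change of 0.80 ± 0.46 (unadjusted p = 0.0958, FDR = 0.77 from gene sums by the quasi-likelihood test). The least variable members were 3 transcripts of sult3st1, with coefficients of 0.151, 0.185 and 0.187.

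**Figure D4:**
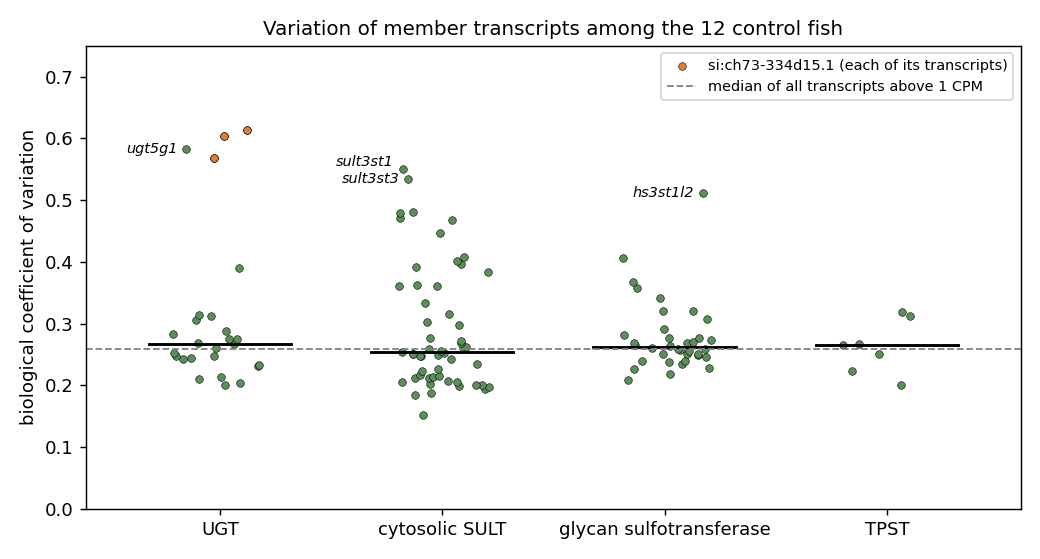
Biological coefficient of variation (vertical axis) of member transcripts above 1 CPM among the 12 control fish, 1 point per transcript (orange for si:ch73-334d15.1), bars at the family medians and the dashed line at the median of all transcripts (0.258). Family medians lie between 0.254 and 0.267, and transcripts of si:ch73-334d15.1 reach 0.613.

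The cytosolic SULTs together had 241.1, 284.2 and 325.0 CPM in controls (58 transcripts). Medians were 284.3, 273.9 and 273.5 CPM for LR, MR and HR and 248.4 and 257.5 CPM for LG and HG, and all groups overlapped the controls. Of the reads in controls 21.5% fell on sult1st6, 18.3% on sult3st1, 16.5% on sult1st2, 13.8% on sult6b1, 13.6% on sult2st2 and 11.8% on sult1st3. The SULT1 family is known for phenols, catechols and thyroid hormones, and SULT2 for steroids. Tested SULT transcripts with a log2 fold change below 0 numbered 46 of 59 in HG (median -0.114) and 41 of 59 in HR (-0.058). There were 32 of 59 in LG (-0.043) and 28 of 59 in MR (0.015). Of all transcripts 32010 of 63537 lay below 0 in HG and 30886 of 62153 in LR. In LR 39 of 59 tested SULT transcripts had a log2 fold change below 0 (median -0.07), and 7 had an unadjusted p below 0.05, 1 higher and 6 lower (11.9% in all and 10.2% lower, against 7.75% and 3.83% of all transcripts). The count of 7 was 4 without LR fish 3 or LR fish 5. Among the 6 lower ones 3 were transcripts of sult1st2, from 1 component, and the log2 fold change summed over that gene was -0.04.

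Transcripts of sult1st2 differed among themselves. In comp122017_c2_seq3 controls had 0.525, 1.7 and 3.36 CPM, LR fish 0.346, 0.858 and 1.49 and LG fish 0.281, 0.626 and 1.51 CPM, all LR and LG fish lying under the control median. The log2 fold change was -1.03 ± 0.37 in LR (unadjusted p = 0.00974, FDR = 0.507) and -1.28 ± 0.38 in LG (unadjusted p = 0.00317, FDR = 0.523), both by the quasi-likelihood test, with exact permutation p of 0.0248 and 0.0101. Without LG fish 1 the LG value was -1.12. In MR 4 fish were under every control and fish 4 was above them all at 3.45 CPM. For comp122017_c2_seq14 the values were -0.92 ± 0.36 in LR, -0.94 ± 0.39 in MR and -1.02 ± 0.36 in LG. Another transcript, comp122017_c2_seq9, had a positive log2 fold change, of 0.39 ± 0.18 in LR and 0.42 ± 0.18 in LG (unadjusted p = 0.0475 and 0.0284, quasi-likelihood test). Summed over sult1st2 the log2 fold change was -0.04 in LR, -0.09 in MR and -0.09 in LG. The same component also holds sult1st3, and reads of such similar sequences could have been assigned to either, so single transcripts here are uncertain.

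All 6 transcripts of sult2st2, of the steroid-conjugating family, had log2 fold changes below 0 in LR, MR, HR and LG, and 5 of 6 in HG. They belong to 1 component and share reads, so they are not 6 separate measurements. The gene had 30.0, 38 and 46.6 CPM in controls and 27.7, 33.6 and 38.3 in HR, with wide overlap. The sum over the gene gave -0.23 ± 0.11 in HR (95% interval -0.456 to -0.002, unadjusted p = 0.0479, FDR = 0.62, quasi-likelihood test, and p = 0.119 without HR fish 3), and -0.15 to -0.20 in the other 4 groups. For sult6b1 the most divergent medians were 58.8 CPM in MR and 27.2 in HG, beside 38.9 in controls. Its log2 fold change was 0.54 ± 0.27 in MR (unadjusted p = 0.0561, FDR = 0.508) and -0.58 ± 0.24 in HG (unadjusted p = 0.0248, FDR = 0.691), from gene sums by the quasi-likelihood test. By the same test the MR value was 0.37 without MR fish 6 (unadjusted p = 0.2). The HG value was -0.44 without HG fish 2 (unadjusted p = 0.0744). For sult3st1, summed over 25 transcripts, log2 fold changes lay between -0.13 in HG and 0.14 in MR. Within it comp118901_c4_seq24 had 1.39, 2.17 and 3.15 CPM in controls and 0.527, 1.57 and 2.02 in HG, where all 6 fish were under the control median (log2 fold change -0.60 ± 0.23, unadjusted p = 0.0164, FDR = 0.729, quasi-likelihood test).

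**Figure D5:**
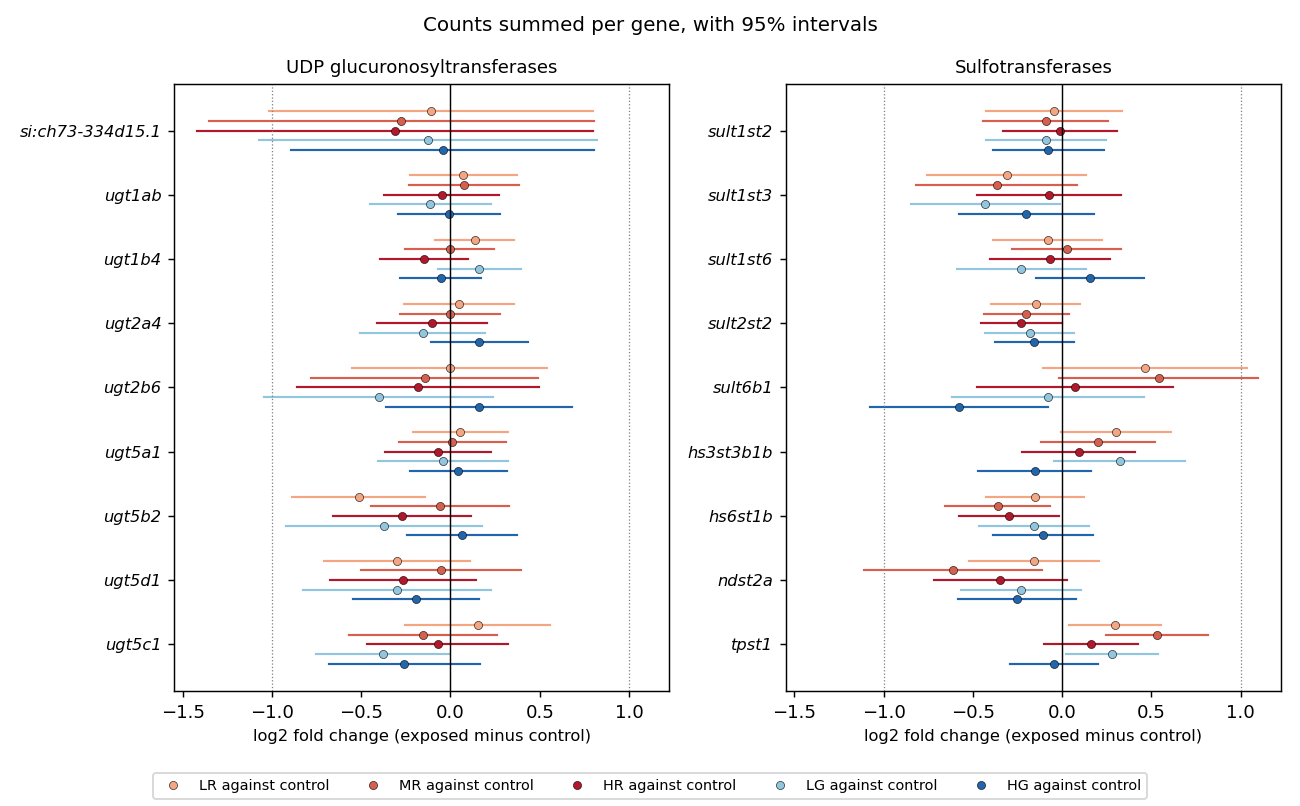
Log2 fold changes against the 12 controls (horizontal axes) from counts summed per gene, with 95% intervals. Shown are the 8 UGT and 8 sulfotransferase genes with the highest mean CPM in a single transcript, and ugt5c1 and tpst1. The gene sult3st1, with reads spread over 25 transcripts, is not among them. Colours mark the exposed group and dotted lines a log2 fold change of 1 either way. Most intervals include 0, while si:ch73-334d15.1 has the widest among the plotted UGT genes, reaching -1.42 in HR.

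The 40 glycan sulfotransferase transcripts listed in all tables summed to 138.6, 162.6 and 192.9 CPM in controls. LR fish had 139.9, 172.9 and 189.3 CPM, MR fish 121.3, 149.9 and 178.5 and HR fish 126.3, 155.1 and 176.9. LG fish had 145.3, 169.6 and 189.2 CPM and HG fish 129.9, 151.0 and 175.0. In HG 30 of 40 tested transcripts had a log2 fold change below 0 (median -0.145). The counts were 26 of 41 in HR, 24 of 41 in LG and 23 of 40 in LR (medians -0.083, -0.089 and -0.059). Of all transcripts 30467 of 62718 lay below 0 in MR and 32010 of 63537 in HG. In MR 31 of 41 tested transcripts had a log2 fold change below 0 (median -0.14), and 1 higher and 6 lower had an unadjusted p below 0.05 (17.1% in all and 14.6% lower, against 8.93% and 3.75% of all transcripts). The higher one was of hs6st2 (log2 fold change 0.71, unadjusted p = 0.0347, quasi-likelihood test). It was listed for MR alone, so no other group was tested for it. Being listed only in the group where it was higher, it adds no support to these counts. Summed over hs6st2 the log2 fold change in MR was 0.045 (unadjusted p = 0.772, quasi-likelihood test). The lower ones were 4 of ndst2a, 1 of hs6st1b and 1 of hs2st1a (-0.58, unadjusted p = 0.0491, quasi-likelihood test). Those of ndst2a belong to 1 component and share reads, so they are not 4 separate measurements. This count of 7 was 2 without MR fish 1 and 2 without MR fish 4.

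All 4 transcripts of ndst2a, which removes acetyl groups from heparan chains and sulfates the nitrogen, and the 1 transcript of hs6st1b were among the 6. In ndst2a the summed level was 32.2, 47.0 and 65.5 CPM in controls, 10.5, 34.4 and 45.4 in MR and 20.1, 38 and 50.6 in HR. The log2 fold change of the gene was -0.61 ± 0.24 in MR (unadjusted p = 0.0185, FDR = 0.385) and -0.35 ± 0.18 in HR (unadjusted p = 0.0658, FDR = 0.656), both by the quasi-likelihood test. Without MR fish 1 the MR value was -0.44 (unadjusted p = 0.0384) and without MR fish 4 it was -0.49 (unadjusted p = 0.057), while the HR value was -0.22 without HR fish 3. In comp124588_c0_seq7 MR fish 1 and MR fish 4 were the lowest, at 4.16 and 5.18 CPM, while the other MR fish had 7.2 to 13 CPM and controls 9.17 to 18.5. Its log2 fold change in MR was -0.58, and -0.45 or -0.47 without the one or the other. For hs6st1b, which adds sulfate to the glucosamine of heparan sulfate, controls had 12.5, 16.1 and 20.7 CPM, MR fish 8.81, 13.2 and 16.3 and HR fish 10.9, 14.1 and 16.4. The log2 fold change was -0.36 ± 0.14 in MR and -0.30 ± 0.13 in HR (unadjusted p = 0.0186 and 0.0311, FDR = 0.447 and 0.611, quasi-likelihood test). From gene sums the MR value was -0.27 without MR fish 1 (unadjusted p = 0.0579) and -0.32 without MR fish 4 (unadjusted p = 0.0491). Another heparan sulfate gene with many reads, hs3st3b1b, had 24.1, 47.0 and 57.7 CPM in controls and 46.8, 60 and 63.5 in LR (gene log2 fold change 0.30 ± 0.15, unadjusted p = 0.0555, FDR = 0.581, quasi-likelihood test). Its log2 fold change was 0.20 in MR, 0.09 in HR, 0.32 in LG (0.22 without LG fish 1) and -0.15 in HG, with unadjusted p from 0.0832 to 0.551 by the quasi-likelihood test.

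In HR a pair of transcripts of chst15, which sulfates chondroitin chains, had opposite signs. Controls had 0.899, 1.13 and 1.92 CPM of comp119748_c4_seq15 and HR fish 0.439, 0.865 and 1.06, with 4 of 6 under every control (log2 fold change -0.68 ± 0.23, unadjusted p = 0.00601, FDR = 0.416 by the quasi-likelihood test, exact permutation p = 0.000485). For comp119748_c4_seq14 controls had 0.525, 0.86 and 1.16 CPM and HR fish 0.984, 1.19 and 1.32 (log2 fold change 0.41 ± 0.18, unadjusted p = 0.0356, quasi-likelihood test). Over the gene the log2 fold change was 0.01. These values rest on 6 to 34 reads per fish. A single-transcript gene, chst7, had 2.7, 4.65 and 6.87 CPM in controls and 2.49, 3.33 and 4.65 in HR (log2 fold change -0.47 ± 0.18, unadjusted p = 0.0154, FDR = 0.527, quasi-likelihood test). Hepatocyte marker transcripts in HR included 43 of 290 with a lower level at an unadjusted p below 0.05 (14.8%, against 3.26% of all transcripts). Another 2 had a higher level (0.69%, against 4.08%). All hepatocyte marker transcripts summed to 129075.3 to 156664.0 CPM in HR and 127507.5 to 172004.7 in controls. Their part in these results was not tested.

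Tyrosylprotein sulfotransferases had higher values in most exposed groups. The 12 TPST transcripts listed in all tables summed to 15.14, 19.4 and 25.9 CPM in controls. LR fish had 19.8, 22.5 and 29.6 CPM, MR fish 24.2, 25.7 and 36.4, HR fish 18.5, 21.9 and 27.5, LG fish 18.8, 23.0 and 25.5, and HG fish 17.4, 20.6 and 21.4. Every MR fish lay above the control median, and MR fish 4 stood apart at 36.4 CPM. In MR all 13 transcripts that passed the filter, of 14, had a log2 fold change above 0 (median 0.48), and 7 of them (53.8%, against 5.18% of all transcripts on the higher side) an unadjusted p below 0.05. Without MR fish 4 that count was 3 and the median 0.35, and without control fish 5, 7, 10 or 11 the count was 4. Positive log2 fold changes were found for 11 of 12 transcripts in LR (median 0.21), 8 of 12 in HR (0.24), 10 of 13 in LG (0.15) and 6 of 12 in HG (0.01). Transcripts of 1 component share reads, so these numbers do not count separate measurements. The 13 in MR include comp119405_c0_seq5 and the 13 in LG comp119405_c0_seq17, each listed for that group alone. Their mean levels there were 0.949 and 0.969 CPM, against 0.644 and 0.604 in controls. Being listed only in the group where they were higher, they add no support to these counts.

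The gene tpst1 carried most of this. It had 9.73, 11.5 and 15.8 CPM in controls. LR fish had 11.1, 13.7 and 18.7 CPM, MR fish 13, 15.8 and 26.0, HR fish 9.95, 13.1 and 16.5, LG fish 11.3, 14.6 and 16.7, and HG fish 10.1, 11.2 and 13.5. Fish of all exposed groups overlapped the controls. The log2 fold change from gene sums was 0.53 ± 0.14 in MR (95% interval 0.24 to 0.82, unadjusted p = 0.00092, FDR = 0.194), 0.30 ± 0.12 in LR (unadjusted p = 0.0267, FDR = 0.496) and 0.28 ± 0.12 in LG (unadjusted p = 0.0337, FDR = 0.619), by the quasi-likelihood test. In HR and HG it was 0.16 ± 0.13 and -0.05 ± 0.12. Unlike the CPM above, the gene sum in MR includes comp119405_c0_seq5 and that in LG comp119405_c0_seq17. Each is listed only in the group where it was higher, so it adds no support. The part of these transcripts in the gene values was not tested. The MR value was 0.37 without MR fish 4 (unadjusted p = 0.00572), the LG value was 0.27 without LG fish 1 (unadjusted p = 0.0484), and the LR value was 0.21 without LR fish 5 (unadjusted p = 0.108). For comp119405_c0_seq1 controls had 0.342, 1.14 and 2.05 CPM and MR fish 1.49, 1.83 and 3.18 (log2 fold change 0.82 ± 0.25, unadjusted p = 0.0032, FDR = 0.291 by the quasi-likelihood test, exact permutation p = 0.0028). In comp119405_c0_seq15 5 of 6 LR fish (2.14, 2.44 and 2.72 CPM) lay above every control (1.19, 1.7 and 2.18 CPM), with a log2 fold change of 0.50 ± 0.15 (unadjusted p = 0.00362, FDR = 0.459 by the quasi-likelihood test, exact permutation p = 0.00108). For tpst1l the value was 0.32 ± 0.14 in MR (unadjusted p = 0.0333, FDR = 0.441 from gene sums, quasi-likelihood test), from 8.17 to 10.2 CPM in the medians. Red cell markers also had higher levels in MR (443.7, 581.4 and 840.1 CPM, against 243.5, 452.2 and 649.4 in controls). Of their 4 transcripts, 3 were higher at an unadjusted p below 0.05, against 5.18% of all transcripts (quasi-likelihood test). They come from 2 genes, and transcripts of 1 gene can share reads, so these are not 4 separate measurements. The part of the red cell markers in the TPST values was not tested.

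Roundup and glyphosate were compared directly at each shared dose. At 0.01 mg/L 0 of 137 members differed between LR and LG at FDR below 0.1 and 0.0% of all transcripts did, while 2 (1.46%) had an unadjusted p below 0.05, against 2.5% of all transcripts. At 10 mg/L 0 of 136 members differed between HR and HG, again beside 0.0% of all transcripts, and 5 (3.68%) had an unadjusted p below 0.05, against 5.72%. The exact test called 0 members in either, beside 0.0213% and 0.0114% of all transcripts, and DESeq2 0 members beside 0.0% and 0.0507%. Leaving out single fish moved the counts between 1 and 4 at the low dose (1 without LG fish 2, LG fish 4 or LR fish 2, and 4 without LG fish 6 or LR fish 6) and between 1 and 7 at the high dose (1 without HG fish 6 or HR fish 1, 2 without HG fish 2, HG fish 5 or HR fish 3, and 3 without HR fish 5).

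At the low dose the gene sums put ugt5c1 higher in LR (19.5, 31.4 and 50.1 CPM) than in LG (19.4, 23.1 and 27.6 CPM), by 0.54 ± 0.20 (unadjusted p = 0.0172, FDR = 1.0, quasi-likelihood test), and it was the only gene below an unadjusted p of 0.05 (2.56% of 39, against 2.55% of all genes). The lowest p of a transcript was that of chst10 comp123302_c1_seq5, at 0.761, 0.87 and 1.23 CPM in LR and 0.817, 1.63 and 1.72 in LG (difference -0.71 ± 0.24, unadjusted p = 0.00938, FDR = 1.0, quasi-likelihood test). This enzyme sulfates the terminal glucuronic acid of the HNK-1 glycan. At the high dose 1 of 38 genes (2.63%, against 5.8%) passed, chst7, at 2.49, 3.33 and 4.65 CPM in HR and 2.97, 4.81 and 5.54 in HG (difference -0.43 ± 0.20, unadjusted p = 0.0434, FDR = 0.854, quasi-likelihood test). Its unadjusted p stayed below 0.05 in 4 of 12 refits without 1 fish, and was 0.0929 without HG fish 6 (quasi-likelihood test). The largest difference of HR minus HG was that of hs3st1l2, at 1.01 with a 95% interval of -0.046 to 2.072. Its unadjusted p was 0.0594 (FDR = 0.859, quasi-likelihood test), and the difference was 0.69 without HR fish 3. Against controls hs3st1l2 had a log2 fold change of 0.20 in HR and -0.80 in HG (unadjusted p = 0.619 and 0.0741, quasi-likelihood test). For sult6b1 the difference of HR minus HG was 0.65 with a 95% interval of -0.04 to 1.34. The interval of the difference between the chemicals lay wholly within 2-fold for 30 of 39 genes at the low dose and 31 of 38 at the high dose, which leaves a difference of that size possible for 9 and 7 genes.

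One test over all 6 groups and 42 fish asked whether any group differed, for the 136 members listed in all tables. It called 0 members, beside 0.00837% of all transcripts, and 10 members (7.35%) had an unadjusted p below 0.05, against 6.1% of all transcripts. The 5 smallest were tpst1 comp119405_c0_seq15 (p = 0.00192, FDR = 0.469), sult1st2 comp122017_c2_seq14 (p = 0.0041), chst15 comp119748_c4_seq15 (p = 0.01), ugt1b4 comp113786_c0_seq1 (p = 0.0193) and tpst1 comp119405_c0_seq1 (p = 0.0207), all by the quasi-likelihood test. For the ugt1b4 transcript, HR and HG fish had medians of 18.1 and 17.4 CPM, LR and LG fish 21.6 and 21.5, and controls 19.3. The other ugt1b4 transcript, comp113786_c0_seq2, held more reads. Its medians were 49.0 and 53.2 CPM in HR and HG, 58.8 and 59.8 in LR and LG, and 50.7 in controls. Summed over ugt1b4 the log2 fold change in HG was -0.06 (unadjusted p = 0.621, quasi-likelihood test).

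Genes around the conjugation step were read in the same way, and no transcript of these lists was called by the quasi-likelihood test. Cosubstrate supply (10 genes, 41 transcripts) had 194.9, 222.0 and 284.8 CPM in controls and group medians of 229.2 to 254.8 CPM. Its transcript of ugdh with the most reads, for the enzyme that makes UDP-glucuronate, had 12.1, 16.2 and 24.9 CPM in controls and log2 fold changes from -0.03 in HG to 0.20 in LR. Those for the PAPS synthases papss1, papss2a and papss2b lay between -0.24 and 0.64, and only papss2b in LG had an unadjusted p below 0.05 (0.64 ± 0.30, p = 0.0439, quasi-likelihood test). That value rests on LG fish 1, which had 65 CPM of papss2b, while the other LG fish had 12.5 to 15.6 and controls 7.94 to 20.1. Without this fish it was -0.05 (unadjusted p = 0.773). Deconjugation (14 genes of sulfatases, their activating factors and a glucuronidase, 50 transcripts) had 5 of 47 tested transcripts lower at an unadjusted p below 0.05 in LR (10.6%, against 3.83% of all transcripts) and 5 of 48 in MR (10.4%, against 3.75%), with 0 higher in either. In HR 0 were higher and 2 lower, in LG 1 and 1, and in HG 2 and 1. These came to 4.26%, 4.26% and 6.52% in all, against 7.34%, 6.72% and 6.48% of all transcripts. Its glucuronidase gusb had log2 fold changes from -0.21 in HR to -0.04 in LR.

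Conjugate export (6 genes, 31 transcripts) had 323.8, 375.0 and 451.9 CPM in controls and group medians of 344.9 to 416.9 CPM. At an unadjusted p below 0.05, 2 of 29 tested were higher in LR (6.9%, against 7.75% of all transcripts) and 1 of 31 in MR (3.23%, against 8.93%), with 0 lower. In HR and LG 0 of 30 passed, and in HG 1 of 30 was higher and 1 lower (6.67%, against 6.48%). The canalicular pump for glucuronides and other conjugates, abcc2, had 15 transcripts. Its transcript with the most reads had a log2 fold change of -0.41 ± 0.13 in HG (unadjusted p = 0.004, FDR = 0.654, quasi-likelihood test). In the other groups that value lay between 0.04 in HR and 0.17 in LR. Phase I enzymes (3 genes, 23 transcripts) had a median log2 fold change of 0.27 in LR, with 7 of 22 tested higher (31.8%, against 3.92% of all transcripts) and 0 lower at an unadjusted p below 0.05, and medians of -0.04 to 0.09 in the other groups. Transcripts of 1 gene can share reads, so these are not 22 separate measurements. For cyp1a, the classical target of the aryl hydrocarbon receptor, controls had 42.8, 101.7 and 177.8 CPM in its leading transcript. The log2 fold change of that transcript was -0.25 ± 0.35 in LR (unadjusted p = 0.48, quasi-likelihood test). In HR it was -0.72 ± 0.33 (unadjusted p = 0.0383, quasi-likelihood test, and p = 0.0997 without HR fish 2). Receptors and factors (11 genes, 99 transcripts) had between 1 and 5 transcripts higher and between 2 and 4 lower at an unadjusted p below 0.05 in each group. In all, 9.38% passed in LR (against 7.75% of all transcripts), 8.25% in MR (against 8.93%) and 7.14% in HR (against 7.34%). For LG it was 3.06% (against 6.72%) and for HG 7.14% (against 6.48%). DESeq2 called 1 of 96 tested transcripts of this list in LR and 1 of 97 in MR, beside 0.249% and 0.743% of all transcripts. The exact test called 1 of 97 in MR, beside 0.992%.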

How the data were processed

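Libraries of liver RNA from 42 single fish were analysed here, for which the authors assembled the reads into transcripts with Trinity, without a genome. Per the labels, the submitters' processing notes name Bowtie2 2.1.0, SAMtools 0.1.18 and edgeR. The authors deposited 1 table of raw read counts per exposed group, each with that group's 6 fish and the same 12 controls, and annotated transcripts with Ensembl 71. Where a read matched several transcripts, 1 hit was kept, so counts of near-identical copies are uncertain, and 3 components hold members of more than 1 gene name. Further columns hold the authors' own fold changes, mean levels, p-values and calls, which were not used. In the tables, 1 repeated header line was left out.

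The members and the lists of other genes were chosen with earlier results of these data known. Zebrafish gene symbols were assigned from the descriptions in the tables. Transcripts found with 1 read or more in 6 fish or more were tested with edgeR 4.0.16 (R 4.3.3) by the quasi-likelihood test with TMM scaling, 2-sided, with Benjamini-Hochberg adjustment over all transcripts tested and a call at FDR below 0.1. Direct comparisons used 6 against 6 fish, and a joint test all 42. For named members the difference of mean log2 CPM (prior count 2) was also tested by an exact permutation test over all 18564 splits of the fish, or 924 splits for 6 against 6, where the smallest p possible is 5.39e-05 or 0.00216. Errors of log2 fold changes are standard errors of the fit. The script was tested on simulated data.

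Named were members called in any fit, the 5 smallest p below 0.05 per comparison, and the 3 most and 3 least variable members among controls. Also named were the 8 genes of UGTs and of sulfotransferases with the highest mean CPM in a single transcript. Of the other lists, ugdh, papss1, papss2a, papss2b, cyp1a and abcc2 were named, and gusb after its values had been seen, as were hs6st2 and hs2st1a. Alternatives were RLE size factors, no filter, more than 1 CPM in 6 fish, edgeR's exact test, DESeq2 1.42.0, counts summed per component, all groups fitted together, the replicate number as a block, FDR below 0.05 and leaving out each fish. Counts summed per gene, and these sums and transcripts of the other lists without single fish, were added after seeing the data. Depth ranged from 10223627 to 33291845 reads. No 2 libraries of a group were duplicates (highest correlation 0.9442).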

Additional observations from a re-analysis of the deposited data

Results flagged for a closer look

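Values of the 4 families and of the transcripts with the smallest p-values were searched for single fish far from the other 5 of their group, by Dixon's criterion. Of 55 groups of fish checked, 3 held such a fish, and chance alone gives about 1 in 20. In MR, fish 4 had a summed TPST level of 36.4 CPM, while the next fish had 26.3 and the lowest 24.2 CPM. The other cases both concern chst10 comp123302_c1_seq5, the transcript with the smallest p between LR and LG. LG fish 4 had 0.817 CPM of it, against 1.48 to 1.72 CPM in the other LG fish, and LR fish 2 had 1.23 CPM, against 0.761 to 0.913 CPM in the other LR fish.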

How the results depend on the processing

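The number of members called at FDR below 0.1 was 0 in 71 of the 73 alternative counts. The exceptions were MR with edgeR's exact test and with DESeq2, where 1 member was called in each, ugt5c1 comp117289_c1_seq1 (log2 fold change -1.13 in both). In the 114 refits without 1 fish the count ranged from 0 to 0 in each comparison. Of 269 alternative log2 fold changes for 30 pairs of member and comparison, 5 changed sign. With counts summed per component, tpst1 comp119405_c0_seq8 in HR against HG was -0.011, sult1st2 comp122017_c2_seq9 in LG was -0.21 and chst15 comp119748_c4_seq14 in HR was -0.006. With counts summed per gene, chosen after seeing the data, the sult1st2 transcript was -0.092 and chst15 comp119748_c4_seq15 in HR was 0.009. These sums add other transcripts to the one named. None of 498 values for these pairs with 1 fish left out changed sign. For gene sums and transcripts of the other lists, 1 of 534 such values did, papss2b comp118086_c0_seq2 in LG, which ranged from -0.053 without LG fish 1 to 0.774 without LG fish 4. With the replicate number as a block, 0 members were called in all 7 comparisons. Deviations of fish with the same number correlated with r from -0.351 to 0.349, above 0.1 in 1 to 3 of 6 pairs. In each comparison 0 to 2 of 6 fish were closest to their own number. These values show no clear pairing by number, but 6 pairs cannot exclude it, and the labels do not tell. The ugt5c1 transcript called by both other tools rests on 5 to 20 reads per MR fish, which limits its precision.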
